A study of Mus musculus with 6 samples.

Results

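The genes described here are the secreted Wnt ligands of the mouse, their Frizzled and LRP receptors, the R-spondins and their Lgr receptors, the secreted inhibitors of the Sfrp, Dkk and Wif1 types, and Axin2. They were taken by gene symbol from the deposited table of normalized values, which gave 48 of 55055 rows, each symbol once. No measured value entered the choice, although results of these data were already known when the group was proposed. Poly(A)-selected, directional RNA-seq libraries came from pregnant mice, from the uterine muscle wall (myometrium), at E19.5 by the sample labels and gestational day 19 by the series design. There were 3 wild-type animals (TCF23 WT) and 3 animals with Tcf23 knocked out by CRISPR/Cas9 (TCF23 KO), 1 library per animal. No other treatment is labelled. The sources used here do not state the strain and age of the mothers, the genotype of their fetuses or the number of knockout lines.

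Wnt proteins are secreted, lipid-modified signals. Binding of a Wnt to a Frizzled receptor and an LRP co-receptor stops the destruction complex from degrading beta-catenin, which then works with TCF/LEF factors to switch on target genes. Other Wnt ligands act through Frizzled and Ror receptors without beta-catenin. R-spondins, through Lgr receptors, keep Frizzled receptors on the cell surface, while Sfrp proteins and Wif1 bind Wnts and most Dkk proteins act on the LRP co-receptors. In the female reproductive tract Wnt4, Wnt5a and Wnt7a are known for their part in forming and patterning the uterus. TCF23 is a basic helix-loop-helix protein and, despite its name, not one of the TCF/LEF factors of the Wnt pathway.

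Total counts ran from 39939686 to 65036402 per library. Wild-type libraries held 3360 to 5970 Tcf23 counts, and knockout replicates 1, 2 and 3 held 0, 2 and 1. All 10 smooth muscle markers were detected, with sums of 27070 to 30970 CPM in wild-type and 33244, 38076 and 15366 CPM in knockout replicates 1, 2 and 3. CPM is a count scaled to a library of 1e6 counts; for single genes it is relative to library sizes scaled by TMM, and for marker sums to total counts. Knockout replicate 3 thus had the least smooth muscle RNA. Summed placental and fetal membrane markers were highest in knockout replicate 1 (308 CPM, against 42.0 to 44.3 in wild-type), mostly from Tpbpa (244 CPM). The list was not uniform: Plac1 and Prl2c2, for example, were also highest there, but Ttr in knockout replicate 2 and Psg16 in wild-type replicate 2. In bulk tissue, fewer cells of a type and less RNA per cell cannot be told apart.

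Of the 48 genes, 35 had enough counts to be tested, and none differed between genotypes past the threshold in edgeR's quasi-likelihood test (0 of 35; smallest adjusted p = 0.341, for Wnt16). Over all 19599 tested genes 0.0204% passed, that is 4 genes, all lower in the knockout. At an unadjusted p under 0.05, 5 of the 35 were higher in the knockout and 3 lower, against 5.27% and 3.29% of all tested genes. The 8 genes are 22.9% of the group, where 8.56% of all tested genes reached that level in either direction. Wnt6, among the 8, had enough counts to be tested only through its knockout libraries, so the filter favoured its direction. With the replicate number as a block, a pairing read from the same expression values, 5 were higher and 5 lower at that level and again 0 passed. DESeq2 on the same counts called 2 genes, both higher, Sfrp5 and Wnt16, and 2.01% of all genes, while limma-voom called 0. Fitted log2 changes were above 0 for 15 and below 0 for 20 of the 35, while 52.1% of all genes were above 0; the median was −0.08, against 0.01 over all genes. That division turned to 19 above and 17 below, of 36 tested, without wild-type replicate 1 and likewise without knockout replicate 1, and to 18 and 17 without knockout replicate 3. It moved the other way, to 13 above and 22 below, without knockout replicate 2, in limma-voom and with the replicate block. The 3 lower genes became 5 without knockout replicate 3 and 7 without knockout replicate 2.

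**Figure D1:**
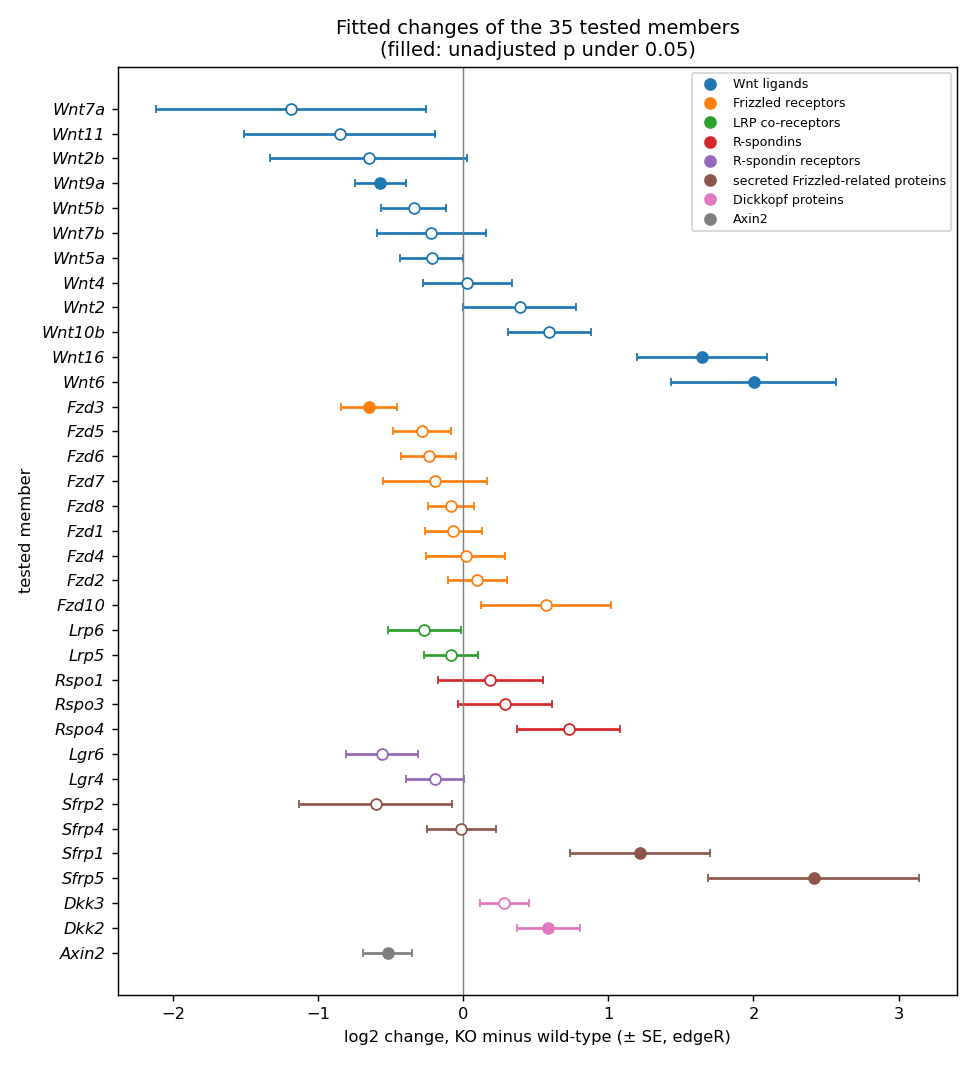
Fitted log2 change (x axis, knockout minus wild-type, ± SE from edgeR, 3 libraries per genotype) of each of the 35 tested genes, coloured by role and ordered within it. Filled points mark the 8 genes with an unadjusted p under 0.05: Wnt9a, Fzd3 and Axin2 lie below 0, and Wnt16, Wnt6, Sfrp1, Sfrp5 and Dkk2 above it.

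Promoter sequence matched by symbol for 31 of the 48 genes, with 34 promoters in all (RefSeq, GRCm38.p6, 250 bases before to 50 after a start). Basic helix-loop-helix proteins as a family bind the E-box, CANNTG, whose letters read alike on both strands; it occurs in 72.3% of all 32851 promoters and in 22 of 34 (64.7%) of this group. The TCF/LEF letters CTTTGAT or CTTTGAA, searched on both strands, occur in 8.65% of all promoters and in 3 of 34 (8.82%) here. The second share is near that of all promoters, and the first is lower. The promoters of Sfrp5 (chr19:42202203-42202502, minus strand) and Wnt16 (chr6:22287977-22288276, plus strand) are shown because DESeq2 called these 2 genes. That of Axin2 (chr11:108920099-108920398, plus strand) is shown because it is a tested target gene of beta-catenin signalling. Lgr5 and Dkk1, also targets in the group, were not tested. Capitals mark CANNTG, found 1 time each in Sfrp5 and Wnt16 and 0 times in Axin2; none of the 3 holds the TCF/LEF letters in this window. A match is only a run of letters and not a bound site.
Sfrp5: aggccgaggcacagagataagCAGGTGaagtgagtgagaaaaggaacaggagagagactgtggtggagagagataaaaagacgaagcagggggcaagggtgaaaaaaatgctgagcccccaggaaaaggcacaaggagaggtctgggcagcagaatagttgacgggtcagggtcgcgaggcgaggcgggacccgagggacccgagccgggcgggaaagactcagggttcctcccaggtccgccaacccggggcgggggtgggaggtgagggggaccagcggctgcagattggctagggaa
Wnt16: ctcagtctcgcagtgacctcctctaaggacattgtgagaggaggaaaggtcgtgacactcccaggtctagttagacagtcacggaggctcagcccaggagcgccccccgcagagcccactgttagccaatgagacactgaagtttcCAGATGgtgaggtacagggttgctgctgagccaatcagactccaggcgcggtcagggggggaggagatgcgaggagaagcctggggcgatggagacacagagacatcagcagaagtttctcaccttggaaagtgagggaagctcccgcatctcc
Axin2: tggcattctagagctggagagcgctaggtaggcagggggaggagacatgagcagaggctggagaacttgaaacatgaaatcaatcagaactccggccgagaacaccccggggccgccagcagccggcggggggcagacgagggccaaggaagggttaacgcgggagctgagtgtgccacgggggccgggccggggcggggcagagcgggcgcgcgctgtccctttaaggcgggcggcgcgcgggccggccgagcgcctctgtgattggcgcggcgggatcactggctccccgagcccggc

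Per length of merged exons, Sfrp4 was by far the most abundant of the group. Its level was 273 ± 31.2 CPM per kb in wild-type and 271 ± 80.5 in knockout (mean ± SD, n = 3 each), which was 54.6% of the summed wild-type level of all 48 genes and 8.31 times that of the next gene, Lgr6. Lgr6, at 32.9 ± 3.89 CPM per kb in wild-type, was followed by Fzd7 (20.4 ± 1.21), Fzd2 (18.65 ± 2.55), Rspo1 (15.9 ± 3.96) and Wnt5a (15.1 ± 0.475). From Fzd7 to Wnt5a each gene's mean ± SD overlapped that of its neighbour in this order. All 19 Wnt ligands together came to 42.7 ± 3.15 CPM per kb in wild-type and 35.4 ± 4.29 in knockout, and the 10 Frizzled receptors to 76.2 ± 3.58 and 71.5 ± 20.3. Per length, Sfrp4 RNA thus exceeded the sum of all Wnt ligands and Frizzled receptors in both genotypes.

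**Figure D2:**
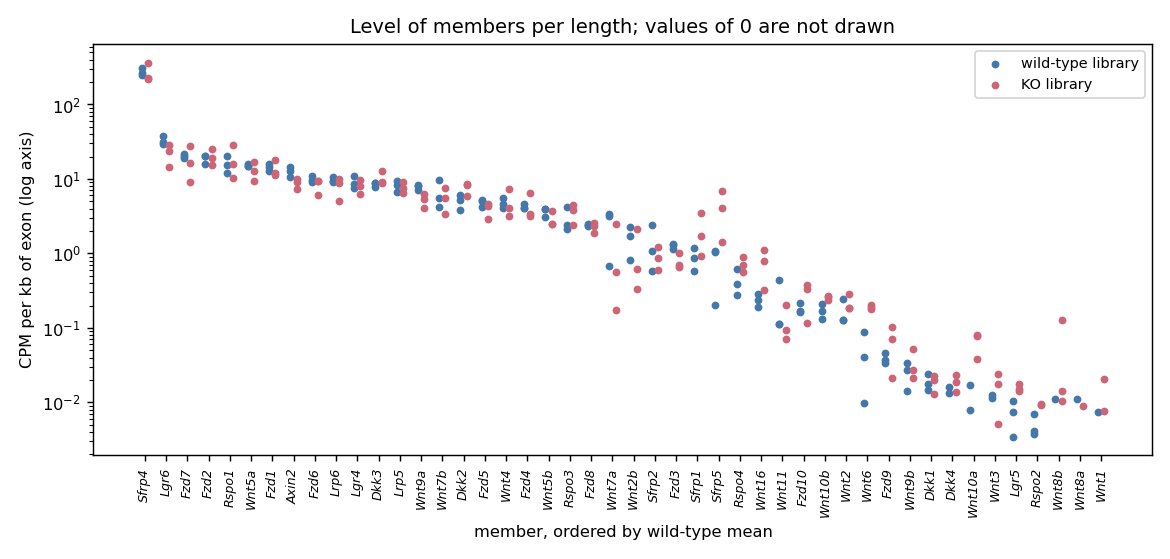
Level of each gene in CPM per kb of merged exon (log axis) in the 3 wild-type and 3 knockout libraries, 1 point per library, ordered by the wild-type mean. Sfrp4 stands above all others in each library, and the levels fall over several orders of magnitude to genes with a few counts; libraries at 0 are not drawn, and genes at 0 in all libraries of a genotype are left out.

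Among the ligands, Wnt5a, which signals largely without beta-catenin, was the most abundant. It measured 116, 122 and 116 CPM in wild-type replicates 1, 2 and 3 and 72.5, 99.6 and 133 CPM in knockout replicates 1, 2 and 3. The knockout libraries lay on both sides of the wild-type ones (log2 change −0.22 ± 0.22 SE; edgeR adjusted p = 0.887), and without knockout replicate 3 the log2 change was −0.46. Wnt4, a stromal Wnt needed for decidualization, had 19.6, 17.2 and 23.5 CPM in wild-type and 31.0, 13.5 and 17.0 CPM in knockout. Knockout replicate 1 was the highest and replicate 2 the lowest of the 6, so the groups overlapped (log2 0.03 ± 0.30).

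Wnt9a, a ligand known from joint and bone development, had all 3 knockout libraries below all wild-type ones. It had 27.7, 26.7 and 23.4 CPM in wild-type and 20.7, 17.9 and 13.7 CPM in knockout. The knockout mean was 67.3% of the wild-type mean (log2 −0.57 ± 0.17; edgeR unadjusted p = 0.0124, adjusted p = 0.392). With any 1 library left out the log2 change stayed between −0.71 and −0.43.

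For Wnt16 the knockout values were the higher ones. This ligand, best known for its part in bone and skin, had 1.24, 0.829 and 1.03 CPM in wild-type and 1.43, 4.87 and 3.44 CPM in knockout. Knockout replicate 1 was just above the wild-type libraries, and replicates 2 and 3 were well above them (log2 1.65 ± 0.45; edgeR unadjusted p = 0.00715, adjusted p = 0.341; DESeq2 adjusted p = 0.022). Wnt6 was near the limit of detection, with 1, 10 and 5 counts in wild-type and 25, 25 and 17 counts in knockout. That is 0.0214 to 0.193 CPM against 0.389 to 0.451 CPM, without overlap (log2 2.001 ± 0.57; edgeR adjusted p = 0.362). Only the knockout libraries gave Wnt6 enough counts to be tested, so the filter favoured this direction. Its log2 change was 2.81 without wild-type replicate 2 and 1.56 without wild-type replicate 1.

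Wnt7b, a ligand of epithelia, varied widely within each genotype. It measured 27.0, 20.5 and 47.4 CPM in wild-type and 27.3, 16.7 and 37.6 CPM in knockout, with overlapping groups (log2 −0.22 ± 0.37). Summed markers of uterine epithelium (10 genes, all detected) were 2338, 1576 and 3536 CPM in wild-type and 2711, 959 and 4495 CPM in knockout. In both genotypes the library with the least Wnt7b, replicate 2, had the lowest epithelial sum, and the library with the most, replicate 3, the highest. Wnt7a, picked after its values were seen, was likewise lowest in replicate 2 of each genotype. It had 10.7, 2.12 and 9.97 CPM in wild-type and 1.77, 0.559 and 7.78 CPM in knockout (log2 −1.19 ± 0.93; edgeR unadjusted p = 0.241, adjusted p = 0.827). Each knockout library was below the wild-type library of its number, and with the replicate block the log2 change was −1.60 ± 0.46 (edgeR unadjusted p = 0.0126, adjusted p = 0.314). The pairing was read from these same expression values, so that p-value is not independent support. Without knockout replicate 3 it was −2.69 and without knockout replicate 2 it was −0.67. The part of epithelial content in the levels of these 2 genes was not tested.

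The other tested ligands were low in level and overlapped between genotypes, apart from Wnt10b. Wnt5b ran from 6.51 to 10.6 CPM; Fbxl14, on the other strand, overlaps its span but shares 0 exon bases with it. Wnt2b ran from 3.48 to 9.62 CPM in wild-type and from 1.38 to 8.92 CPM in knockout, and its log2 change of −0.65 became −1.77 without knockout replicate 2. Wnt11 ran from 0.293 to 1.84 CPM and Wnt2 from 0.285 to 0.637 CPM over the 6 libraries. The remaining 7 ligands, Wnt1, Wnt3, Wnt3a, Wnt8a, Wnt8b, Wnt9b and Wnt10a, were not tested and had at most 29 counts in a library.

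**Figure D3:**
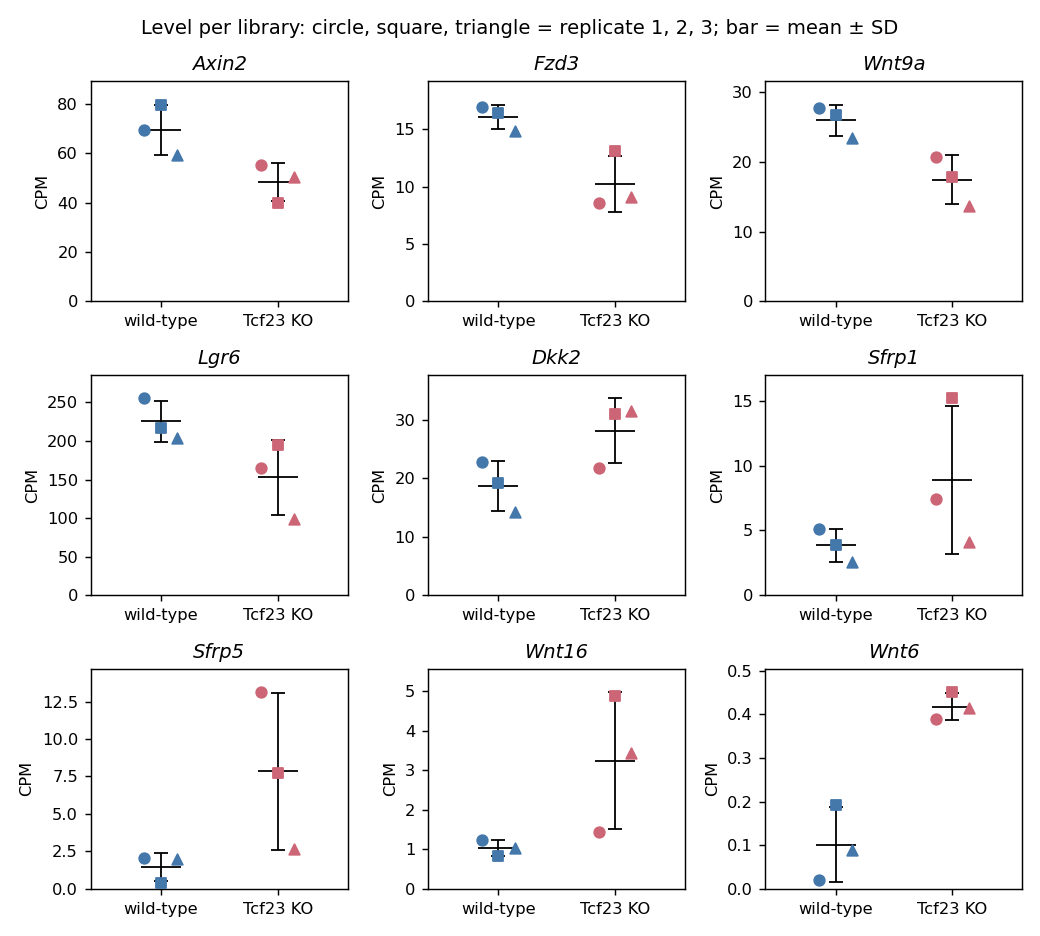
CPM (y axes from 0, a separate scale per gene) of the 8 genes with an unadjusted p under 0.05 and of Lgr6 in each wild-type and knockout library; horizontal bars are means and error bars SD, n = 3. Axin2, Fzd3, Wnt9a and Lgr6 have every knockout point below every wild-type point, Sfrp5, Wnt16 and Wnt6 every knockout point above, and Dkk2 and Sfrp1 overlap.

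The Frizzled receptors were mostly close in level between genotypes. Of 9 tested, 6 had negative and 3 positive log2 changes, and 1, Fzd3, had an unadjusted p under 0.05. Fzd3, a receptor known for guiding axons through planar cell polarity, had 16.9, 16.4 and 14.9 CPM in wild-type and 8.55, 13.1 and 9.10 CPM in knockout. The 3 knockout values lay below the wild-type ones, with a mean of 63.7% of wild-type (log2 −0.65 ± 0.19; edgeR unadjusted p = 0.0109, adjusted p = 0.378). Without knockout replicate 2 the log2 change was −0.86, the largest value with 1 library left out.

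Fzd7, the Frizzled with the highest wild-type mean per length, measured 87.4, 98.2 and 91.2 CPM in wild-type and 74.6, 127 and 40.8 CPM in knockout. The knockout libraries spanned the wild-type range on both sides (log2 −0.19 ± 0.36). Among the knockout libraries the order was that of the smooth muscle, decidual, pericyte and endothelial sums, replicate 2 the highest and replicate 3 the lowest. Among the wild-type libraries the order was that of the decidual sums but not of the other lists, and the part of these cells was not tested. Fzd2 had 73.6, 73.8 and 57.5 CPM in wild-type and 70.4, 92.2 and 56.6 CPM in knockout. Fzd1 had 54.0, 66.1 and 60.4 CPM in wild-type and 47.0, 74.7 and 50.6 CPM in knockout. Fzd4, also the receptor for norrin in blood vessels, had 31.1, 27.8 and 27.2 CPM in wild-type and 21.4, 43.1 and 22.5 CPM in knockout. For these 4 receptors knockout replicate 2 was the highest of the 6 libraries, and their log2 changes were within 1 SE of 0.

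Fzd6, Fzd5 and Fzd8 had their lowest level in knockout replicate 1. Fzd6 measured 52.3, 46.5 and 43.3 CPM in wild-type and 29.7, 45.8 and 44.9 CPM in knockout. Fzd5 measured 35.3, 28.8 and 35.6 CPM in wild-type and 19.8, 30.3 and 31.7 CPM in knockout. Fzd8 measured 14.3, 13.9 and 15.02 CPM in wild-type and 11.3, 14.01 and 15.5 CPM in knockout. The other 2 knockout libraries were within or near the wild-type range in each case, and edgeR's adjusted p was 0.790 or more. Fzd10 ran from 0.379 to 1.23 CPM, and Fzd9 had 2 to 15 counts and was not tested.

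The LRP co-receptors, which pair with Frizzled for beta-catenin signalling, were both well expressed and overlapped between genotypes. Lrp6 had 122.8, 145.8 and 126.8 CPM in wild-type and 68.6, 137.5 and 122.1 CPM in knockout. Only knockout replicate 1 lay outside the wild-type range by a wide margin (log2 −0.27 ± 0.25; edgeR adjusted p = 0.876). Lrp5 had 65.0, 82.0 and 92.6 CPM in wild-type and 62.7, 74.6 and 89.2 CPM in knockout (log2 −0.08 ± 0.19).

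Lgr6, an R-spondin receptor, was lower in each knockout library. It had 255, 217 and 204 CPM in wild-type and 164, 195 and 99.4 CPM in knockout. Knockout replicate 3 was the lowest, and the knockout mean was 67.8% of wild-type (log2 −0.56 ± 0.25; edgeR unadjusted p = 0.0581, adjusted p = 0.603). Knockout replicate 3 also had the least smooth muscle RNA, but knockout replicates 1 and 2 had more of it than every wild-type library. The part of muscle content in the Lgr6 level was not tested. Without knockout replicate 3 the log2 change was −0.33, and without knockout replicate 2 it was −0.77. With the replicate block, whose pairing was read from these same expression values, it was −0.61 (edgeR unadjusted p = 0.0223, adjusted p = 0.376). That p-value is therefore not independent support. Lgr4, the more widely expressed receptor of the family, had 45.1, 50.4 and 64.4 CPM in wild-type and 36.8, 46.9 and 56.2 CPM in knockout, with overlapping groups (log2 −0.19 ± 0.20). Lgr5, a stem cell marker in several epithelia, had 5, 4 and 2 counts in wild-type and 10, 10 and 6 in knockout and was not tested.

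Their ligands, the R-spondins, overlapped between genotypes. Rspo1 had 38.9, 30.1 and 23.6 CPM in wild-type and 30.4, 55.0 and 20.0 CPM in knockout. Rspo3, which acts on blood vessels among other tissues, had 13.1, 7.48 and 6.65 CPM in wild-type and 11.9, 13.9 and 7.49 CPM in knockout. Both were highest in knockout replicate 2, while in knockout replicate 3 Rspo1 was below the wild-type range and Rspo3 within it (log2 0.19 ± 0.36 and 0.29 ± 0.32). Rspo4 ran from 0.664 to 2.114 CPM over the 6 libraries, and Rspo2 had at most 3 counts.

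Of the secreted inhibitors, 4 had positive and 2 negative log2 changes. Sfrp4, a Frizzled-related protein, had 1290.4, 1042 and 1096 CPM in wild-type and 956, 1521 and 923 CPM in knockout. Knockout replicate 2 was the highest library and replicates 1 and 3 the lowest, so the knockout mean was 99.2% of the wild-type mean while the libraries differed (log2 −0.01 ± 0.24; edgeR adjusted p = 0.997). Sfrp5 had 2.04, 0.385 and 1.998 CPM in wild-type and 13.1, 7.73 and 2.68 CPM in knockout. No knockout value fell to the wild-type range, but knockout replicate 3 came close to it. The fitted log2 change was 2.42 ± 0.73 (edgeR unadjusted p = 0.0117, adjusted p = 0.385; DESeq2 adjusted p = 0.0144). It was 1.83 without knockout replicate 1 and 1.96 without wild-type replicate 2.

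Sfrp1 had 5.12, 3.85 and 2.53 CPM in wild-type and 7.41, 15.2 and 4.10 CPM in knockout. Knockout replicate 3 lay within the wild-type range, and the log2 change of 1.22 ± 0.48 (edgeR unadjusted p = 0.0379, adjusted p = 0.542) dropped to 0.59 without knockout replicate 2. Sfrp2 had 1.27 to 5.21 CPM in wild-type and 1.27 to 2.66 CPM in knockout.

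Dkk2 and Dkk3 were the Dickkopf genes expressed in this tissue. Dkk2, which acts on LRP co-receptors, had 22.7, 19.2 and 14.2 CPM in wild-type and 21.7, 31.0 and 31.5 CPM in knockout. Knockout replicates 2 and 3 were above the wild-type range and replicate 1 within it (log2 0.59 ± 0.22; edgeR unadjusted p = 0.0301, adjusted p = 0.515). Dkk3, a divergent family member, had 29.2, 29.3 and 26.6 CPM in wild-type and 29.6, 43.2 and 30.8 CPM in knockout. The groups did not overlap, but wild-type replicate 2 and knockout replicate 1 were nearly equal (log2 0.28 ± 0.17; edgeR adjusted p = 0.752). Dkk1 and Dkk4 had 0 to 3 counts in each library. Wif1, the Wnt inhibitory factor, had 1 count in wild-type replicate 3 and 0 in the other libraries; a count of 0 allows up to 3 counts, or 0.0466 to 0.0732 CPM in the knockout libraries.

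Axin2 is both a scaffold of the destruction complex and one of the most general target genes of beta-catenin signalling. It had 69.4, 79.6 and 59.2 CPM in wild-type and 55.0, 39.9 and 50.1 CPM in knockout. All knockout values were below the wild-type ones, and the knockout mean was 69.7% of the wild-type mean. The log2 change was −0.52 ± 0.17, which did not pass over all genes (edgeR unadjusted p = 0.0175, adjusted p = 0.423; DESeq2 adjusted p = 0.244). With 1 library left out it ranged from −0.63 to −0.40.

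In all, 9 of the 35 tested genes had groups that did not overlap, 5 higher and 4 lower in the knockout. That is 25.7%, where 14.2% of all tested genes did not overlap, 7.22% higher and 7.01% lower. The 9 include Wnt6, which was tested only through its knockout libraries. The 4 lower ones were Axin2, Fzd3, Wnt9a and Lgr6, and the 5 higher ones Sfrp5, Wnt16, Wnt6, Dkk3 and Wnt10b, the last at 0.446 to 0.713 CPM in wild-type and 0.811 to 0.927 CPM in knockout. Knockout libraries spread more than wild-type ones for 26 of the 35 genes, or 74.3%, close to the 75.7% of all tested genes. Knockout replicate 2 held the highest level of the 6 libraries for 11 of the 35 genes, against 22.2% of all tested genes, and knockout replicate 1 the lowest for 11, against 24.0%; these differences were not tested.

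**Figure D4:**
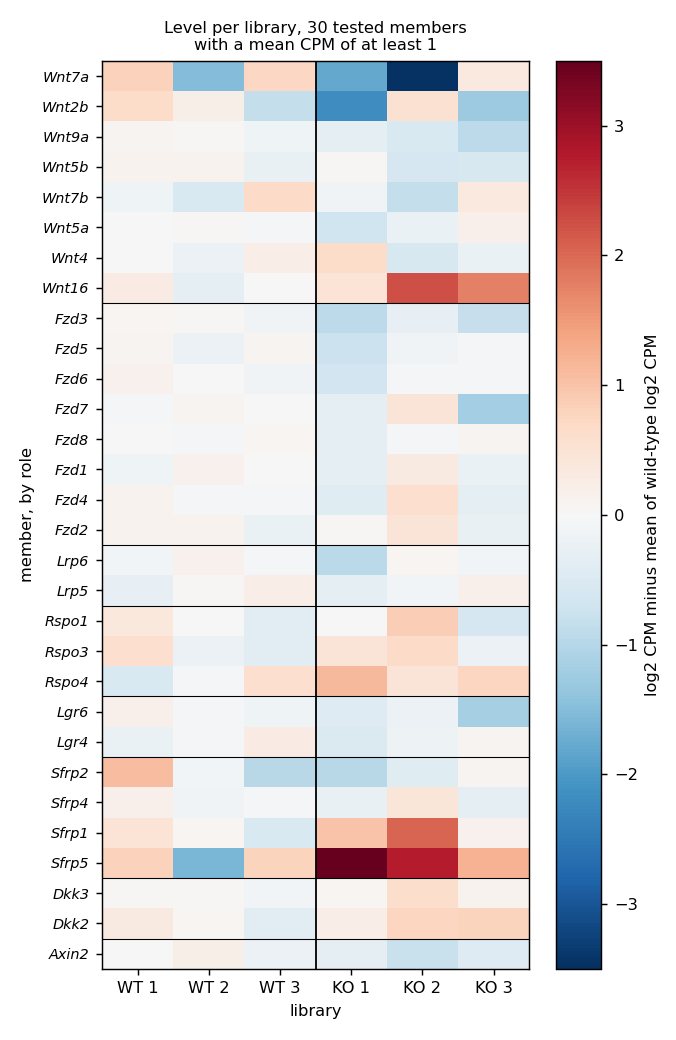
Log2 CPM minus the mean wild-type log2 CPM (colour) in each of the 6 libraries (columns) for the 30 tested genes with a mean of at least 1 CPM (rows, by role). Sfrp5 and Wnt16 are above 0 (red) in every knockout column and Wnt9a, Fzd3, Lgr6 and Axin2 below 0 (blue) in each.

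**Figure D5:**
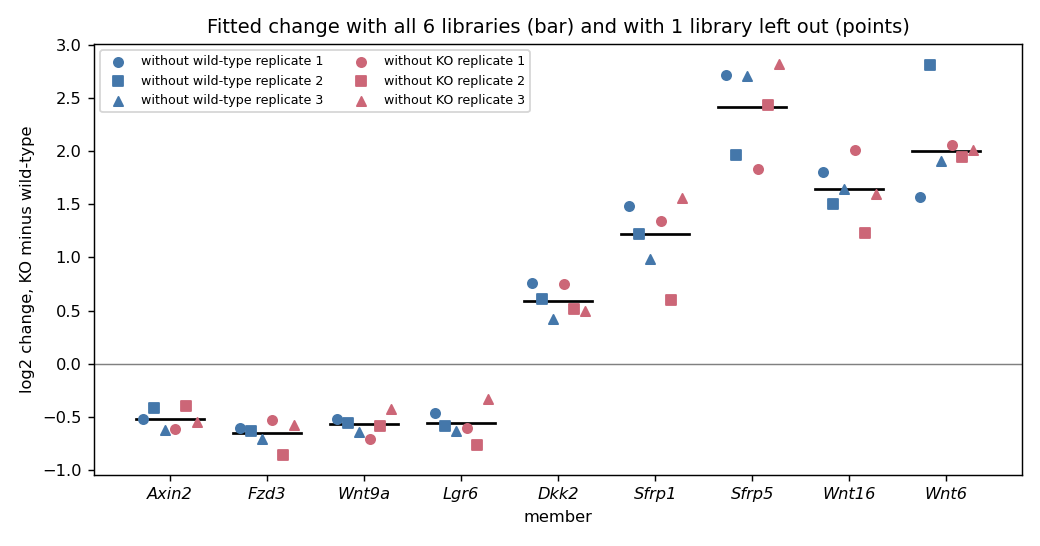
Fitted log2 change (y axis) of 9 genes with all 6 libraries (black bars) and with each library left out in turn (points, coloured by the genotype of the library left out). All points keep the sign of the bar; Sfrp1 without knockout replicate 2 (0.59), Sfrp5 without knockout replicate 1 (1.83) and Wnt6 without wild-type replicate 2 (2.81) lie far from it.

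Summed markers of some other cell types also stood apart between the genotypes. Natural killer and T cell markers (10 of 10 tested with positive log2 changes) summed to 7.09 to 9.19 CPM in wild-type and 14.7 to 23.3 CPM in knockout. Neutrophil markers (5 of 5 tested positive) summed to 6.81 to 10.7 CPM and 20.3 to 31.4 CPM. Neither of these sums overlapped between the genotypes. Over all tested genes 52.1% had a positive log2 change. Some of these markers, such as Cd3e, Cd8a and Mmp8, had enough counts to be tested only through their knockout libraries. For those genes the filter favoured the positive direction. Decidual markers (7 of 8 tested positive) summed to 554 to 605.0 CPM in wild-type and 605.0 to 918 CPM in knockout. Wild-type replicate 2 and knockout replicate 3 were equal to within rounding. On library sizes scaled by TMM, wild-type replicate 2 was above knockout replicate 3, so these sums did not stand apart. The negative gene was Dio3 (log2 −0.98). Pericyte markers (6 of 6 positive) summed to 461 to 519 CPM in wild-type and to 560, 875 and 408 CPM in knockout replicates 1, 2 and 3. Placental and fetal membrane sums (7 of 12 tested positive) were 308, 45.3 and 4.58 CPM in knockout replicates 1, 2 and 3. Mesothelial markers (7 of 8 negative) summed to 409 to 794 CPM and 224 to 933 CPM, but most of that sum was Krt19, which is also on the epithelial list. Msln, the mesothelin gene, had 73.4, 41.7 and 64.03 CPM in wild-type and 28.1, 13.99 and 17.7 CPM in knockout, without overlap (edgeR unadjusted p = 0.00107, adjusted p = 0.215). The knockout means of Upk3b, Lrrn4, Bnc1 and Upk1b were 13.8%, 12.0%, 10.4% and 9.48% of the wild-type means, with wild-type replicate 3 near the knockout libraries in each. Those of Gpm6a and Wt1, on the same list, were 51.3% and 86.6%, with overlapping groups. None of the marker genes in these lists was at 0 in all libraries except the placental Prl3d1, and the part of any of these cells in the levels of the Wnt genes was not tested.

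Other genes of the pathway, from 6 lists, had no call either: 0 in each direction in each list, by edgeR's adjusted p. Over all tested genes 0.0204% were called, 8.56% had an unadjusted p under 0.05 and 47.9% had a log2 change below 0. Of 12 tested secretion factors and extracellular modifiers, 8 were positive and 4 negative (median log2 0.10), with unadjusted p under 0.05 for 1 positive and 2 negative. Trabd2b, a membrane protease that cleaves Wnt proteins, had 43.2, 45.2 and 40.9 CPM in wild-type and 57.7, 58.2 and 57.6 CPM in knockout. The knockout libraries stood close together and above all wild-type ones (log2 0.42 ± 0.11; edgeR adjusted p = 0.325, DESeq2 adjusted p = 0.0348). Apcdd1, an inhibitor at the cell surface and itself a Wnt target, had 110.2, 89.8 and 89.8 CPM in wild-type and 28.9, 74.1 and 17.7 CPM in knockout. Each knockout library was lower, replicates 1 and 3 by far the most (log2 −1.26 ± 0.47; edgeR adjusted p = 0.515). Without knockout replicate 2 the log2 change was −2.05, and without knockout replicate 3 it was −0.91. Gpc3, a glypican that binds Wnt proteins at the cell surface, and Igfbp4, an IGF-binding protein that also inhibits Wnt signalling, had log2 changes of −0.44 and 0.66.

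Among 10 receptors and membrane proteins outside the Frizzled and LRP families, 4 were positive and 6 negative, and 3 had an unadjusted p under 0.05, namely Ror2, Ror1 and Adgra2. That level was reached by 8.56% of all tested genes. Ror2, a main receptor for Wnt5a, had 121, 159 and 153 CPM in wild-type and 112, 64.3 and 64.9 CPM in knockout. Each knockout library was lower (log2 −0.84 ± 0.25; edgeR unadjusted p = 0.0105, adjusted p = 0.375). Its paralog Ror1 was higher in each, with 4.59, 5.70 and 4.51 CPM in wild-type and 5.97, 9.47 and 7.999 CPM in knockout (log2 0.66 ± 0.22; edgeR adjusted p = 0.454). Adgra2, a co-activator of Wnt7 signalling in vessels, ran from 105 to 149.8 CPM in wild-type and from 159 to 184 CPM in knockout (log2 0.49 ± 0.17). Ptk7, a pseudokinase of planar cell polarity, had a log2 change of 0.11.

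Of 21 tested genes of the destruction complex and Dishevelled family, 17 were negative and 4 positive, with 0 at an unadjusted p under 0.05 and a median of −0.07. Among all tested genes, 47.9% were negative and 8.56% reached that level. Ctnnb1, which encodes beta-catenin, had 693, 675 and 808 CPM in wild-type and 619.9, 635 and 827 CPM in knockout, with overlapping groups (log2 −0.06 ± 0.18). The 4 with the smallest p were Amer1 (log2 0.51), Apc2 (0.54), the kinase gene Csnk1a1 (−0.20) and the ubiquitin ligase subunit Fbxw11 (−0.16). Of 16 TCF/LEF factors and nuclear cofactors, 10 were positive and 6 negative, again with 0 at that level, with the smallest p for the corepressor genes Tle5 (log2 0.21), Tle2 (0.39) and Tle4 (−0.22) and for Sox17 (−0.11). Of 16 planar cell polarity genes, 8 were positive and 8 negative, with the smallest p for the formins Daam1 (log2 −0.35) and Daam2 (0.60), the effector Fuz (0.26) and the GTPase Rhou (−0.14), all with edgeR adjusted p of 0.688 or more.

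Of 13 tested known beta-catenin targets, 7 were positive and 6 negative (median log2 0.08). An unadjusted p under 0.05 was found for 4 of them and for 8.56% of all tested genes. The 2 lower were Axin2 and Apcdd1, described above. Axin2 is also a gene of the group and Apcdd1 is also on the list of extracellular modifiers, so both are counted again here. The 2 higher were Bambi, a TGF-beta pseudoreceptor, and Nkd2, a feedback inhibitor of Dishevelled. Bambi had 5.29, 5.68 and 5.03 CPM in wild-type and 7.04, 8.15 and 9.10 CPM in knockout (log2 0.60 ± 0.17; edgeR adjusted p = 0.373). Nkd2 had 4.44, 4.32 and 3.996 CPM in wild-type and 6.93, 22.6 and 5.17 CPM in knockout, highest in replicate 2 (log2 1.45 ± 0.53; edgeR adjusted p = 0.495). Without that library its log2 change was 0.52.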

How the data were processed

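Deposited were 6 lists of raw counts (Ensembl gene identifiers) and a table of the authors' normalized signal, in which each library's counts are multiplied by a constant (0.804 to 1.26); the counts were used. HISAT2 2.2.1, HTSeq 0.9.1, FastQC 0.73, DESeq2 2.11.40.7 and mm10 appear in the submitters' processing notes. The annotation release and strand setting used for counting: not given in the sources used here. Wnt5b overlaps Fbxl14 on the other strand (232% of its counts, no shared exon bases) and Sfrp2 an antisense gene (9.62%); for other genes of the group such overlaps came to at most 6.02%.

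Tests used edgeR 4.0.16 in R 4.3.3 (filterByExpr, TMM, quasi-likelihood fit on genotype, Benjamini-Hochberg adjusted p under 0.05 over all tested genes). Alternatives used DESeq2 1.42.0 and limma 3.58.1. The code was tested on simulated data. Exon lengths come from GENCODE M21, which held all 48 genes with identical spans. Intervals and floors cover counting error only. The genes and lists were chosen with earlier results of these data known. Per-library values are given for genes with an unadjusted p under 0.05, non-overlapping groups at a mean CPM of at least 1, a mean CPM of at least 10, or the names Axin2, Lgr5 and Wif1, with values or fitted changes for Ctnnb1 and the 4 genes of each pathway list with the smallest p. Sample titles share replicate numbers between genotypes. Over genes, the deviations of libraries from their genotype's mean correlated at 0.147, 0.196 and 0.217 for equal numbers and −0.223 to 0.0611 for the others, so the numbers were taken to pair the libraries, though these correlations are not independent and the labels do not say what links them. The replicate block was used only in an alternative fit. Because the pairing was read from the same expression values, the p-values of that fit are not independent support. No pair of libraries was alike within counting noise (chi-square over degrees of freedom from 32.5 to 209). The 3 animals per genotype are the replicates; total counts ran from 39939686 to 65036402 per library.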

Additional observations from a re-analysis of the deposited data

How the results depend on the processing

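No setting other than DESeq2 called any Wnt gene of the group; DESeq2 called 2 higher and 0 lower. Over all genes it called 248 higher and 138 lower, edgeR without a filter 47 and 34, and the fit with the replicate block 2 and 5, against 0 and 4. With 1 library left out, 0 to 3 genes were higher and 1 to 4 lower. The block changed no other call. The median log2 change of the tested Wnt genes ran from −0.20 to 0.05 with 1 library left out. Some genes reversed sign, most of them with small changes, and the cause was not tested. Among those with larger changes, Wnt11 (−0.85) and Sfrp2 (−0.60) turned to 0.13 and 0.11 without wild-type replicate 1. Sfrp4 was 0.0011 with a CPM of at least 1 in 3 libraries. Fzd4 and Wnt4 were −0.055 and −0.039 in limma-voom, −0.064 and −0.056 in limma on log2 of the deposited values plus 1, and −0.061 and −0.053 with the replicate block. With 1 library left out, log2 changes ran from −0.28 to 0.11 for Sfrp4, −0.38 to 0.20 for Fzd4, −0.39 to 0.26 for Wnt4, −0.30 to 0.064 for Fzd1, −0.10 to 0.25 for Fzd2, −0.67 to 0.12 for Fzd7, −0.19 to 0.042 for Fzd8, −0.22 to 0.042 for Lrp5, −0.29 to 0.47 for Rspo1, −0.53 to 0.19 for Wnt7b, −0.21 to 0.018 for Ctnnb1 and −0.24 to 0.0025 for Sox17. Wnt6 was not tested at a CPM of at least 1 in 3 libraries. edgeR's unadjusted p went above 0.05 for Axin2 without wild-type replicate 2 (0.0731), for Sfrp5 without knockout replicate 1 (0.051), for Dkk2 without 1 of wild-type replicates 2 and 3 and knockout replicates 2 and 3 (0.0658 to 0.0969) and for Sfrp1 without 1 of wild-type replicates 2 and 3 and knockout replicates 1 and 2 (0.0569 to 0.156). The other 13 of the 48 genes, at no more than 29 counts in any library, were not tested in the main fit. Without a filter all 48 were tested and 0 passed. Wnt10a was the added gene where 36 were tested, that is without knockout replicate 1 or without any 1 wild-type replicate.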

Other observations

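Some Wnt genes of the mouse lie in neighbouring pairs, with no other annotated gene between them. Wnt6 and Wnt10a are 6193 bases apart on chromosome 1, on the same strand, and both were higher in each knockout library. Wnt10a, picked after its values were seen, had 2, 1 and 0 counts in wild-type and 6, 11 and 8 in knockout. The ratio of its summed levels was 8.01, with an exact 95% counting interval of 2.44 to 41.5. For Wnt6, with 16 counts in wild-type and 67 in knockout, the ratio was 4.03 (2.31 to 7.44). Both intervals pool the counts of each genotype's libraries and leave out the spread between animals, so they do not test a genotype difference. Wnt9a, with all knockout values below the wild-type ones, lies 16175 bases from Wnt3a, which had 0 counts in wild-type and 1 in knockout. Wnt10b, with all knockout values above, lies 11706 bases from Wnt1, which had 1 and 3 counts. Wnt9b and Wnt3, 24328 bases apart, had 18 and 25 counts and 4 and 7 counts in wild-type and knockout.

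Wnt8b, also picked after its values were seen, had 0, 2 and 0 counts in wild-type and 29, 2 and 2 in knockout. Nearly all of its counts came from knockout replicate 1, the library with the highest placental and fetal membrane sum, most of which was Tpbpa. What such RNA adds to Wnt8b was not tested.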
